A study of Mus musculus with 12 samples.

Results

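Transcription of 10 genes that sense, carry, make or break down serotonin was followed in mouse 3T3L-1 pre-adipocytes (also written 3T3-L1) grown with or without Raw264.7 macrophages. The genes were the receptors Htr1b, Htr1d, Htr2a, Htr2b and Htr7, the serotonin transporter Slc6a4, the monoamine oxidases Maoa and Maob, and the synthetic enzymes Tph1 and Ddc. They were taken as a named list, and 11 probes of the array carried a transcript of one of them, 2 for Ddc and 1 for each other gene. Of the 20886 genes with a RefSeq symbol on the array, 13927 were tested, among them 7 of the 10. Htr2a, the serotonin 2A receptor, was higher in co-cultured than in lone pre-adipocytes on 12 of 12 arrays, and Maoa, which degrades serotonin, was lower on 11 of 12.

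The data were 12 dual-colour arrays. On each, RNA of 3T3L-1 cells co-cultured with the macrophages carried the red dye Cy5, and RNA of 3T3L-1 cells grown alone for the same time under the same treatment carried the green dye Cy3. The treatments were none (NT), 100 µM serotonin (S), 100 µM cortisol (C) and both hormones together at 100 µM each (CS), for 6, 24 or 48 h. There was 1 array for each treatment and time. The macrophages sat in an insert above the pre-adipocytes, the hormones came from stock solutions in DMSO, and the RNA was taken from the lower well. 3T3L-1 is an established line of mouse embryo fibroblasts that can become adipocytes, and Raw264.7 is a mouse macrophage line. Nothing in the labels said that the cultures of different times or treatments were set up independently, so the p-values below measure the spread between arrays only.

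The layout touches every value. All arrays had the same dye orientation, so a constant dye effect and co-culture cannot be told apart in a ratio at one time, while it cancels in a difference between times. The 4 arrays of a time shared 1 slide, and slide effects cannot be told apart from those of time. NT, S, C and CS always took positions 1, 2, 3 and 4 of a slide, so position and hormone cannot be told apart either. Per array, 19949 to 22824 probes were well above background in Cy5 and 18443 to 21368 in Cy3. At 24 h every array had fewer in Cy3 than in Cy5.

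The hormone labels were set against 14 tested genes that glucocorticoids are known to raise, such as Fkbp5 and Zbtb16. In co-cultured cells the median of these genes over NT lay between 0.41 and 0.91 log2 units on the 6 arrays with cortisol and between −0.13 and 0.19 on the 3 with serotonin alone. There 9 to 12 of the 14 genes were higher than NT with cortisol. With serotonin alone it was 6, 11 and 5 at 6, 24 and 48 h, so the counts overlapped. In cells alone it was raised by 0.65 in the library labelled S at 6 h and by 0.43 in that labelled S at 24 h, with 11 of 14 genes higher in each, but stood at −0.28 in the library labelled CS at 24 h, with 3 of 14 higher. By these medians the Cy3 values of these 3 arrays went against their hormone labels. Every fitted ratio of 6 or 24 h draws on at least 1 of the 3. So does every fitted difference in cells alone, except for the size of C against NT. The main results are also given without the 3 arrays.

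Serotonin is made from tryptophan in a pair of steps. Tryptophan hydroxylase, encoded outside the brain mainly by Tph1, adds a hydroxyl group, and the decarboxylase encoded by Ddc gives the amine. Cells take serotonin up through the transporter Slc6a4 and oxidise it with the mitochondrial enzymes encoded by Maoa and Maob, of which the first has the higher affinity for serotonin. The type 2 receptors Htr2a and Htr2b couple to Gq and phospholipase C, Htr1b and Htr1d couple to Gi, and Htr7 couples to Gs. In fat tissue serotonin from both the circulation and local synthesis is known to act on fat storage and thermogenesis.

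In the RefSeq annotation of GRCm38.p6 the genes lay on 8 chromosomes. The receptor genes were Htr2b at chr1:86097546-86116231, Htr1d at chr4:136423522-136444405, Htr1b at chr9:81628291-81633832, Htr2a at chr14:74640874-74706859 and Htr7 at chr19:35958415-36058133. Slc6a4 lay at chr11:76998597-77032343, Ddc at chr11:11814101-11898144 and Tph1 at chr7:46644641-46672537. Maoa at chrX:16619698-16687812 and Maob at chrX:16709281-16817366 are neighbours on the X chromosome.

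Promoter windows of RefSeq were found for 9 of the 10 genes. The 250 bases before the start are shown for Htr2a and Maoa, because these genes had the co-culture ratios that the results turn on and moved in opposite directions. Both lie on the plus strand and are written 5′ to 3′, Htr2a at chr14:74640624-74640873 and Maoa at chrX:16619448-16619697. Capitals mark the matches to 4 motifs searched on both strands, which were the glucocorticoid receptor hexamer AGAACA, the AP-1 site TGANTCA, the CCAAT box CCAAT and the GC box GGGCGG.
Htr2a: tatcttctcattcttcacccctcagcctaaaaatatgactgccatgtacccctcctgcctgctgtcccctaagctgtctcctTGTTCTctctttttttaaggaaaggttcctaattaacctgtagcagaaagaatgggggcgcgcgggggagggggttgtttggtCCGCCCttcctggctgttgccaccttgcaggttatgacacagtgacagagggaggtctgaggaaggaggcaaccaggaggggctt
Maoa: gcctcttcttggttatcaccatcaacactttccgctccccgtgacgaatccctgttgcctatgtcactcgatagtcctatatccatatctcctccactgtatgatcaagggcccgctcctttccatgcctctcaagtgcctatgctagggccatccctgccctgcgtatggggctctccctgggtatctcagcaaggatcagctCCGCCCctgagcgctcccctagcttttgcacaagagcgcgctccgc
Htr2a held 1 glucocorticoid receptor hexamer, 168 to 163 bases before the start, and 1 GC box, 85 to 80 bases before it, both on the reverse strand. Maoa held 1 GC box, 46 to 41 bases before the start, and none of the other 3 motifs. Among all 32851 windows of this length, 16.1% held the hexamer, 6.75% the AP-1 site, 33.8% the CCAAT box and 32.7% the GC box. A match describes letters in the window only.

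Detection differed between the genes and between the channels. A probe was counted as detected where the scanner software marked its spot well above background. The Maoa probe was detected in both channels on 12 of 12 arrays, and the Maob probe in both channels on 11, the exception being CS at 6 h. Htr2a was detected on 12 arrays in co-cultured cells and on 10 in cells alone. The main Ddc probe was detected on 11 and 9 arrays, Htr2b on 8 and 4, Slc6a4 on 10 and 2, and Tph1 on 6 and 0. These counts do not compare levels between the channels. For Slc6a4 in S at 24 h the Cy5 spot was marked at a raw signal of 67.5, but the Cy3 spot was not marked at 100. No spot of the 11 probes was saturated.

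**Figure D1:**
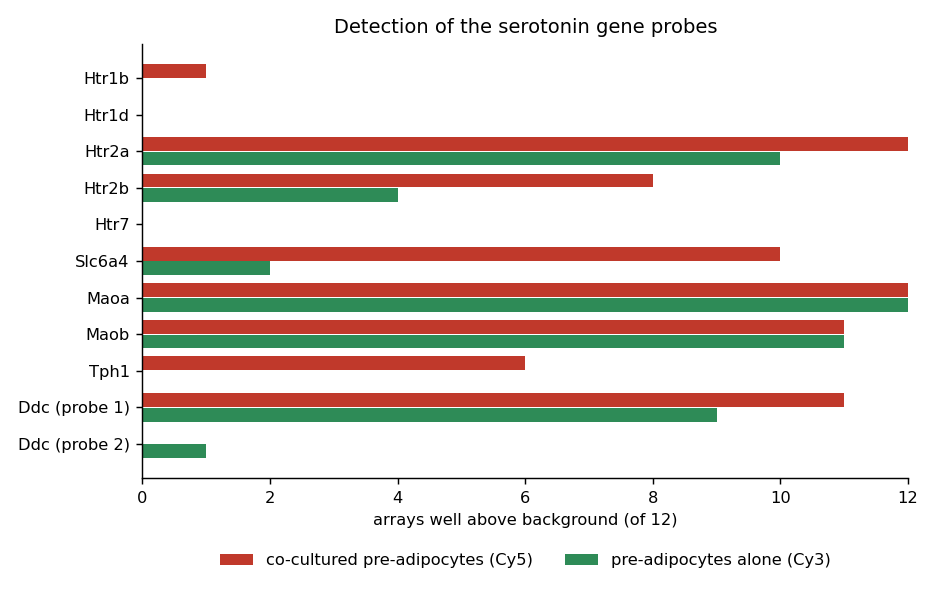
Number of the 12 arrays on which each probe was well above background, in co-cultured pre-adipocytes (red bars, Cy5) and in pre-adipocytes alone (green bars, Cy3). Htr1d and Htr7 have no bar in either channel, and the red bar is at least as long as the green one for every probe except the second of Ddc.

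The receptors Htr1d and Htr7 were not well above background on any array in either channel. Htr1b was detected once, in the co-cultured cells of C at 24 h, where its log2 intensity was 6.74 against 6.53 in NT of the same time. These 3 receptors were not tested. Their log2 intensities lay between 6.09 and 6.74 in Cy5 and between 5.93 and 6.73 in Cy3. Except for that detected Htr1b spot, they are not measured levels. The second Ddc probe was likewise detected once, in the cells alone of S at 6 h, and was not tested.

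The log2 ratio of Cy5 over Cy3, after background correction, an offset of 50 and loess normalization, measures co-culture against growth alone. A gene was called where limma gave a Benjamini-Hochberg adjusted p under 0.05 over all genes tested and the change was at least 1.5-fold. Probes entered the test when one of the channels was detected on 3 arrays or more. Tph1 passed through Cy5 alone and Slc6a4 nearly so, which favours a positive ratio for both.

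Htr2a was the receptor with a called ratio. At 6 h its log2 ratio was 0.20 in NT, 0.40 in S, 0.50 in C and 0.43 in CS. At 24 h it was 0.83, 0.95, 0.71 and 0.91 in the same order, and at 48 h 0.78, 1.00, 1.15 and 1.102. All 12 values were above 0, and the 4 values of 6 h lay below the 8 later ones without overlap. The fitted ratio was 0.38 ± 0.07 (SE) at 6 h, which is 1.30-fold with an adjusted p of 7.47e-04 and short of the fold threshold. The 24 h value was 0.85 ± 0.07, 1.80-fold, with an adjusted p of 1.07e-05. The 48 h value was 1.01 ± 0.07, 2.01-fold, with an adjusted p of 1.76e-07. The calls at 24 and 48 h were also made in each of the 27 alternative settings run, with values from 0.79 to 1.43 and from 0.85 to 1.86. Without the 3 arrays in doubt the values were 0.80 and 1.01.

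The single channels gave the levels behind the Htr2a ratio. In co-cultured cells its log2 intensity ran from 7.55 to 7.97 at 6 h, from 7.92 to 8.27 at 24 h and from 7.83 to 8.14 at 48 h. In cells alone it ran from 7.13 to 7.77 at 6 h, from 7.17 to 7.37 at 24 h and from 6.72 to 7.08 at 48 h. From 6 to 24 h the fitted change was 0.33 ± 0.12 in co-cultured cells (adjusted p = 0.0628) and −0.14 ± 0.11 in cells alone (adjusted p = 0.392). The fitted change from 6 to 48 h was 0.13 ± 0.12 in co-cultured cells (adjusted p = 0.378) and −0.50 ± 0.11 in cells alone (adjusted p = 0.00836), the latter 1.41-fold and not called, and −0.43 without the 3 arrays in doubt (adjusted p = 0.0811). The cells alone were not well above background for Htr2a in CS at 24 h and CS at 48 h.

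Htr2b, a Gq-coupled receptor of the same class, had ratios above 0 on 12 of 12 arrays, from 0.04 to 0.96 with a median of 0.20, and was not called at any time. Both channels were detected on 4 of these arrays and at least 1 channel on 8, and the cells alone on no array of 24 h. The common sign thus rests in part on spots not well above background. At 6 and 24 h the fitted ratio was 0.15 ± 0.10 and 0.14 ± 0.10, and 0.11 and 0.17 without the 3 arrays in doubt. At 48 h it was 0.43 ± 0.10 (adjusted p = 0.00164), 1.35-fold, and 0.26 without the NT array of that time. Its intensity stood apart on a single array. On that of S at 48 h it was 9.26 in co-cultured cells and 8.90 in cells alone, whereas the other 3 arrays of that time ran from 6.57 to 7.995 and from 6.30 to 7.03. Both channels of that array are read from the same spot, and the part of the spot in this value was not tested.

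Slc6a4, the serotonin transporter, was marked well above background mostly in Cy5, the channel of co-cultured cells, and was not called in the ratio at any time. Its log2 ratio was 0.22 in NT, 0.44 in S, 0.23 in C and 0.17 in CS at 6 h. At 24 h it was 0.05, 0.06, 0.02 and −1.10, and at 48 h 0.40, 0.23, 0.00 and −0.05. The CS array of 24 h stood far below the others. There the cells alone read 8.03 against 6.81 to 6.83 in the other lone cultures of that time, while the co-cultured cells read 6.93 against 6.84 to 6.88. That array is one of the 3 whose Cy3 values went against their labels. The fitted ratio at 24 h was −0.25 ± 0.12 (adjusted p = 0.107), and 0.01 without those 3 arrays.

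Tph1, the first enzyme of peripheral serotonin synthesis, was not detected in cells alone on any array. In co-cultured cells it was detected on 0 of 4 arrays at 6 h, 4 of 4 at 24 h and 2 of 4 at 48 h. Its ratio ran from 0.15 to 0.28 at 6 h, where neither channel was detected on any array, from 0.04 to 0.55 at 24 h and from −0.01 to 0.35 at 48 h. The fitted ratios were 0.21 ± 0.06, 0.27 ± 0.06 and 0.20 ± 0.06, none of which was called. As the gene was let into the test by its Cy5 spots alone and the cells alone have no measured level, these ratios are given as a description. Without the 3 arrays in doubt they were 0.20 (adjusted p = 0.087) at 6 h and 0.20 (adjusted p = 0.19) at 24 h.

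Ddc, the decarboxylase of the second step, had ratios on both sides of 0. Its main probe ran from −0.31 to 0.50 over the 12 arrays with a median of −0.12. The fitted ratio was −0.10 ± 0.12 at 6 h, 0.03 ± 0.12 at 24 h and 0.04 ± 0.12 at 48 h, with adjusted p-values of 0.519, 0.843 and 0.772. The first 2 were −0.06 and 0.02 without the 3 arrays in doubt. At 48 h the 95% interval ran from −0.22 to 0.30. The highest single ratio was 0.50 in NT at 48 h, and the lowest was −0.31 in CS at the same time.

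The ratios of 3 of these dim genes differed with the processing. With the deposited log ratios, which differ from the values above in background correction, normalization and offset, Tph1 was called at 6, 24 and 48 h with 1.27, 1.30 and 1.40 (adjusted p = 0.00879, 0.0082 and 0.0026). Slc6a4 was called at 6 and 48 h with 1.15 and 0.69 (adjusted p = 0.00282 and 0.0163), but not at 24 h. Htr2b was called at 24 and 48 h with 1.02 and 1.11 (adjusted p = 0.0439 and 0.0204). An offset of 20 in place of 50, with all else kept, called none of the 3 at any time, with Tph1 at 0.30, 0.40 and 0.31. Most Cy3 spots behind these ratios were not well above background, so the size of those changes is not settled here.

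Maoa, whose enzyme oxidises serotonin and noradrenaline, was the member detected on every array in both channels whose ratio fell. Its log2 ratio at 6 h was −0.29 in NT, −0.96 in S, −0.81 in C and −0.93 in CS. At 24 h it was −0.84, −0.58, −0.46 and −1.16, and at 48 h 0.14, −0.48, −0.29 and −0.68. Only NT at 48 h was above 0, and the times overlapped. The fitted ratio was −0.75 ± 0.11 at 6 h, 1.68-fold lower with an adjusted p of 2.41e-04. By 24 h it was −0.76 ± 0.11, 1.70-fold lower with an adjusted p of 2.32e-04. By 48 h it was −0.33 ± 0.11 (adjusted p = 0.0162), 1.26-fold lower and not called.

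The Maoa ratio depended on the scaling. Centring each array on its median without loess left −0.30 at 6 h (adjusted p = 0.0715) and −0.20 at 24 h (adjusted p = 0.201), both lower but not called, and gave −0.67 at 48 h (adjusted p = 2.19e-04), which was called. That scaling moved the median of all tested genes to 0.226, 0.386 and −0.153 at 6, 24 and 48 h, and relative to that median Maoa stood at −0.521, −0.585 and −0.513. Leaving out the NT array of 24 h gave −0.58 at 24 h, just short of the fold threshold. Without the 3 arrays in doubt the ratio was −0.73 at 6 h (adjusted p = 0.00669) and −0.87 at 24 h (adjusted p = 0.0163), both called.

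In co-cultured cells the log2 intensity of Maoa ran from 12.20 to 12.67 at 6 h, from 12.04 to 12.45 at 24 h and from 11.57 to 12.48 at 48 h. In cells alone it ran from 12.96 to 13.20, from 12.63 to 13.30 and from 12.25 to 12.44. The cells alone fell by 0.73 ± 0.15 from 6 to 48 h (adjusted p = 0.00406), 1.66-fold, and all 4 of their values at 48 h lay below all 4 at 6 h. With median centring this was −0.34 (adjusted p = 0.0936). The co-cultured cells changed by −0.31 ± 0.10 (adjusted p = 0.0249) over the same interval, 1.24-fold and not called.

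Maob, the companion oxidase that prefers other amines, differed little with co-culture and more with time. Its ratio ran from 0.04 to 0.17 at 6 h, from −0.45 to 0.15 at 24 h and from −0.31 to −0.13 at 48 h. The fitted values were 0.13 ± 0.08, −0.16 ± 0.08 and −0.26 ± 0.08, of which the last had an adjusted p of 0.0114 at 1.19-fold. At 6 and 24 h the values were 0.11 and −0.21 without the 3 arrays in doubt. No ratio of Maob was called at any time.

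The level of Maob was low at 6 h and higher later in both cultures. In co-cultured cells the log2 intensity at 6 h was 7.33 in NT, 7.82 in S, 7.15 in C and 6.43 in CS, the last not well above background. At 24 h it ran from 8.16 to 8.54, and at 48 h from 8.12 to 8.50. In cells alone it ran from 6.38 to 7.67 at 6 h, from 8.16 to 8.76 at 24 h and from 8.25 to 8.80 at 48 h. Every later value exceeded every value of 6 h in its channel. Against 6 h, co-cultured cells were higher by 1.17 ± 0.18 at 24 h (adjusted p = 0.00111) and by 1.07 ± 0.18 at 48 h (adjusted p = 5.31e-04), and cells alone by 1.46 ± 0.23 (adjusted p = 0.00169) and 1.45 ± 0.23 (adjusted p = 0.00137). These 4 differences, 2.10-fold to 2.75-fold, were called in all of the 24 alternative settings in which Maob was tested, and without the 3 arrays in doubt the 2 of cells alone were 1.51 (adjusted p = 0.0242) and 1.56 (adjusted p = 0.00865). Slide effects cannot be told apart from time in them.

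**Figure D2:**
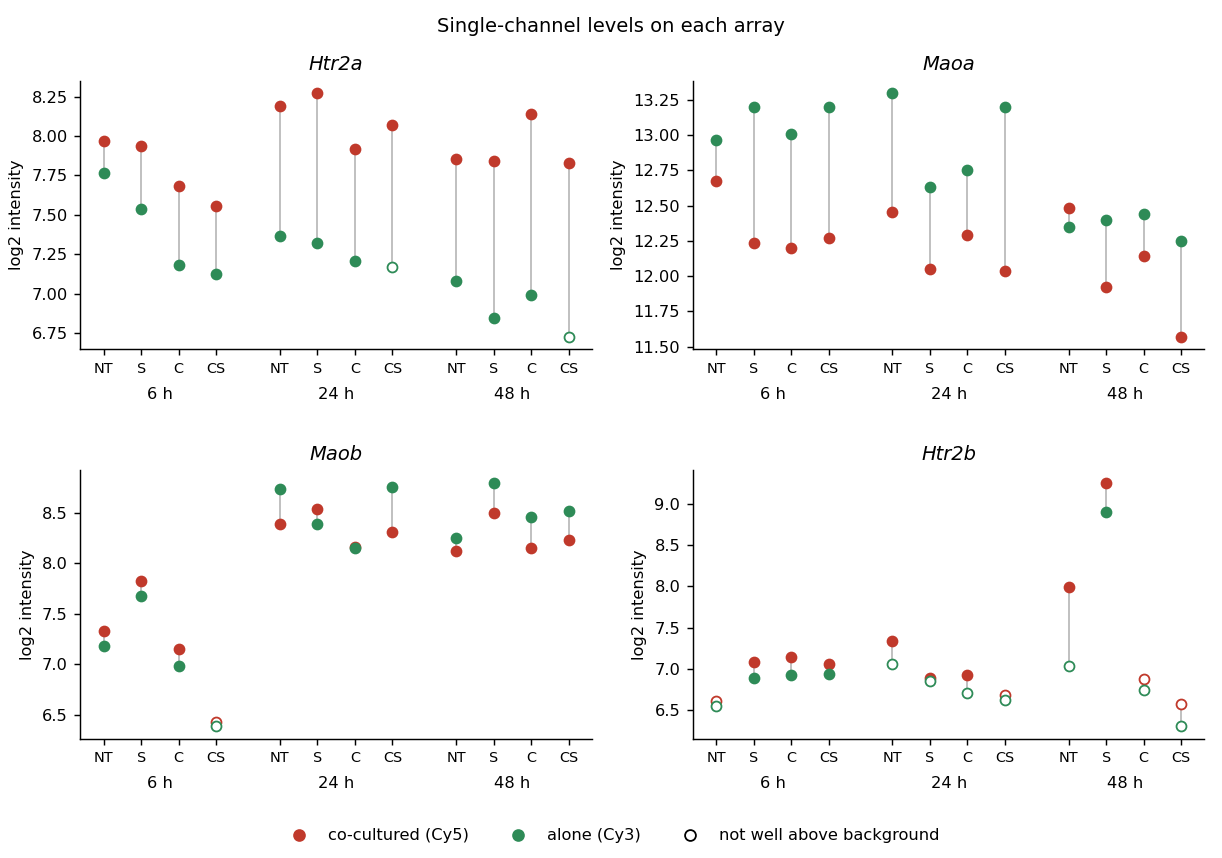
Normalised log2 intensity of Htr2a, Maoa, Maob and Htr2b on each array, with co-cultured cells in red and cells alone in green, joined by a line within an array. Open points were not well above background. Red lies above green for Htr2a on every array and below green for Maoa on all but NT at 48 h, both colours are lower at 6 h for Maob, and for Htr2b both are highest in S at 48 h.

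**Figure D3:**
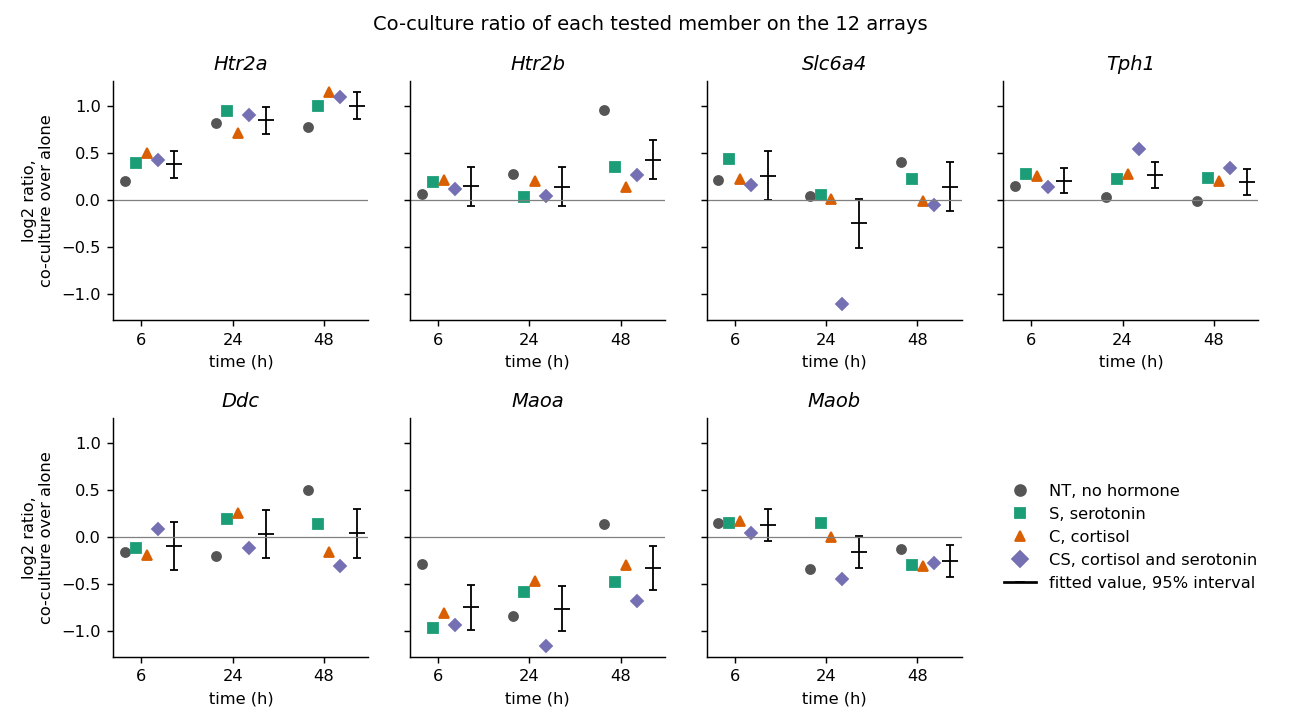
Log2 ratio of co-cultured over lone pre-adipocytes for the 7 genes tested, by time, with 1 symbol for each array and treatment. The black mark is the fitted value with its 95% interval. The Htr2a points lie above 0 at every time, 11 of the 12 Maoa points lie below 0, and 1 Slc6a4 point at 24 h stands at −1.10.

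These calls were read against all genes. At 6 h, 1 of the 7 members was called, where 9.60% of 13923 genes were. At 24 h it was 2 of 7 against 8.34% of 13921, and at 48 h 1 of 7 against 31.2% of 13924. The median log2 ratio of the members was 0.15, 0.03 and 0.14 at the 3 times, and that of all genes −0.02, 0.00 and −0.01. Over all genes the called ratios split into 609 higher and 728 lower at 6 h, 649 and 512 at 24 h, and 2019 and 2330 at 48 h. With median centring the split was 3490 and 225, 4626 and 107, and 1589 and 3626.

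The change of the ratio with time was tested directly. Htr2a rose by 0.63 ± 0.09 log2 units from 6 to 48 h (adjusted p = 2.06e-04), 1.54-fold, and it was the 1 member of 7 called in a comparison that called 24.1% of all genes. It fell under the fold threshold, at 0.57, without the C array of 48 h, at 0.49 after scaling between arrays and at 0.46 with median centring. With the deposited log ratios the Htr2a difference was 1.23, and its ratio at 6 h was 0.63, over that threshold. From 6 to 24 h its ratio differed by 0.47 ± 0.09 (adjusted p = 0.0167), 1.38-fold, and by 0.43 without the 3 arrays in doubt (adjusted p = 0.291), and 0 of 7 members were called against 2.34% of all genes, 3 of the 7 having an unadjusted p under 0.05. For Maoa the ratio at 48 h exceeded that at 6 h by 0.42 ± 0.15 (adjusted p = 0.0343), without the 3 arrays in doubt by 0.40 (adjusted p = 0.0953), and with median centring the sign turned, to −0.37 (adjusted p = 0.0991). For Maob it was lower at 48 than at 6 h by −0.38 ± 0.11 (adjusted p = 0.0116). The last 2 differences were under the fold threshold.

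Over time within a culture, 1 of 7 members was called in co-cultured cells at 24 h against 6 h and 1 at 48 h against 6 h, Maob in both, where 8.90% and 28.5% of all genes were called. In cells alone 2 of 7 were called in each, beside 11.2% and 13.6% of all genes. They were Maob and Slc6a4 at 24 h and Maob and Maoa at 48 h. The fitted Slc6a4 difference was 0.60 ± 0.19 (adjusted p = 0.0361), but none of the 4 lone cultures of 6 h was well above background and only 1 of the 4 of 24 h was, so its size is not settled. That 1 was the CS array described above, without which the log2 difference was 0.38 (adjusted p = 0.084), and the call was lost in 14 of 24 alternative settings. Ddc was higher at 48 than at 6 h by 0.54 ± 0.19 in co-cultured cells (adjusted p = 0.0292) and by 0.40 ± 0.14 in cells alone (adjusted p = 0.0448), neither of which was called, although leaving out any of 4 arrays, C or CS at 6 or 48 h, raised the co-cultured value over the threshold, to between 0.62 and 0.70. Leaving out NT at 6 h or NT at 48 h lowered it to 0.35 and 0.33 (adjusted p = 0.0889 and 0.0846).

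The comparison by hormone asked whether serotonin, cortisol or both changed these genes over NT at the same time. No member was called in any of the 15 hormone comparisons of the ratio, the co-cultured cells or the cells alone. The closest was Maoa in co-cultured cells. Its log2 intensity was 12.67 in NT and 12.24, 12.20 and 12.27 in S, C and CS at 6 h, then 12.45 against 12.05, 12.29 and 12.04 at 24 h, and 12.48 against 11.92, 12.14 and 11.57 at 48 h. The NT value was the highest at each of the 3 times, and the 9 hormone values lay 0.16 to 0.92 log2 units under it. The 9 differences share 3 NT arrays, all at the first slide position, so their common sign needs only that NT was highest on each slide.

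Fitted over the 3 times, Maoa in co-cultured cells differed from NT by −0.47 ± 0.12 with serotonin, by −0.33 ± 0.12 with cortisol and by −0.58 ± 0.12 with both. The adjusted p-values were 0.683, 0.185 and 0.0229, the unadjusted ones 0.00308, 0.0217 and 6.98e-04. The last difference was 1.49-fold lower and so just missed the fold threshold. It passed with quantile normalization of the channels (−0.60, adjusted p = 0.0174) and without CS at 6 h (−0.69, adjusted p = 0.0245) or NT at 24 h (−0.64, adjusted p = 0.0485), and had an adjusted p of 0.187 without the 3 arrays in doubt, at −0.62. Without CS at 48 h it was −0.43 (adjusted p = 0.0517), and in the joint fit of both channels its adjusted p was 0.059. In cells alone the same differences were −0.12, −0.14 and 0.01, with 95% intervals from −0.50 to 0.25, −0.51 to 0.24 and −0.36 to 0.39. The differences with serotonin and with both rest on the libraries labelled S at 6 and 24 h and CS at 24 h. Without those arrays the differences were 0.00, −0.14 and −0.03, with 1 S array left. In the ratio they were −0.34, −0.19 and −0.59 (adjusted p = 0.428, 0.731 and 0.445), and −0.46, −0.19 and −0.59 without those arrays (adjusted p = 0.976, 0.764 and 0.609).

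**Figure D4:**
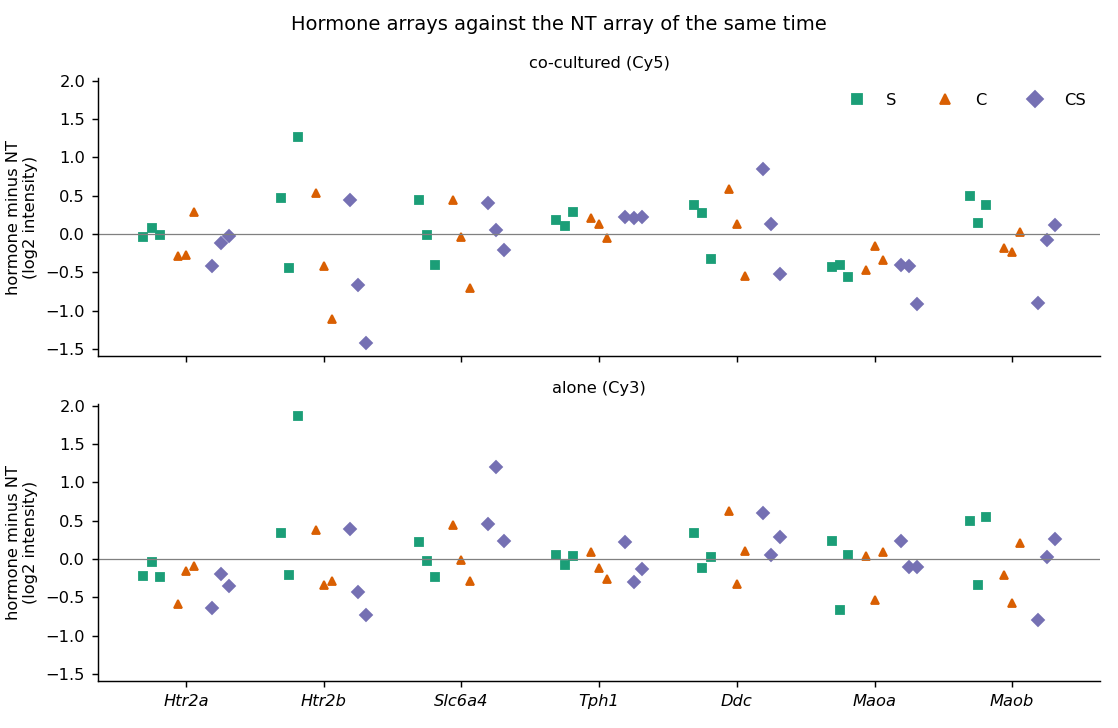
Log2 intensity of each hormone array minus that of the NT array of the same time, for the 7 genes tested, in co-cultured cells (upper panel) and cells alone (lower panel). Each treatment has 3 points, for 6, 24 and 48 h from left to right. In co-cultured cells all 9 Maoa points lie under 0, and in cells alone all 9 Htr2a points do.

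For Htr2a in cells alone the 9 hormone arrays lay 0.04 to 0.64 log2 units under NT of the same time. They too share the 3 NT arrays, and the gene is singled out among 7 genes in 2 channels after its values were seen. The fitted differences from NT were −0.17 ± 0.13 with serotonin, −0.28 ± 0.13 with cortisol and −0.40 ± 0.13 with both, with adjusted p-values of 0.692, 0.307 and 0.137. The differences with serotonin and with both go by the labels of the 3 libraries in doubt. Without these libraries the fitted differences were −0.33, −0.28 and −0.47, with 1 S array left. In co-cultured cells they were 0.01, −0.09 and −0.19, with 95% intervals from −0.30 to 0.32, −0.40 to 0.22 and −0.50 to 0.12. For Maob in co-cultured cells the 6 arrays with cortisol were lower than the 6 without by −0.38 ± 0.15 (adjusted p = 0.126). For Tph1 in co-cultured cells 8 of the 9 hormone arrays were higher than NT, by at most 0.28. It was detected there on no array of 6 h and not in NT of 48 h, so most of these differences are not between measured levels. The Htr2b differences over NT ran from −1.43 to 1.26 in co-cultured cells, the widest range of the 7 genes, and its intervals were as wide, from −0.63 to 1.48 for serotonin. For Slc6a4 and Ddc the differences in co-cultured cells had adjusted p-values of at least 0.703 in the 3 comparisons with NT.

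These hormone results stood beside the following shares of all genes. In the ratio, S, C and CS against NT each called 0% of the genes with limma, 1823, 1367 and 1278 having an unadjusted p under 0.05, and a joint fit of both channels called 3, 0 and 7. Pooling the arrays with cortisol against those without called 0.0215%, and pooling by serotonin called 0%, with 824 genes at an unadjusted p under 0.05 and 0 called by the joint fit. In co-cultured cells C against NT called 1.91%, CS 3.73% and cortisol pooled 2.59%. In cells alone they called 0.208%, 1.36% and 0.970%. Serotonin alone against NT and serotonin pooled called 0% in both cultures, with 915 and 975 genes of co-cultured cells and 1124 and 737 of cells alone at an unadjusted p under 0.05, and 0 by the joint fit. Among the 7 members an unadjusted p under 0.05 was found for 3 in the ratio of CS, 1 each with cortisol and serotonin pooled, and at most 2 in each single-channel comparison.

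A wider list of 55 genes gave the rest of the pathway, of which 54 were on the array and 32 were tested. At 6 h 2 of the 32 were called higher and 3 lower, at 24 h 2 and 0, and at 48 h 5 and 5, with medians of 0.00, −0.01 and −0.06. Over all genes 9.60%, 8.34% and 31.2% were called at these times, and the 10 of 32 at 48 h is near that share. None of the 9 other serotonin receptors was tested, as at most 1 was well above background on any array. Of the 6 genes of synthesis and its cofactor 5 were tested. Gch1, which makes the first committed step to tetrahydrobiopterin, the cofactor of tryptophan hydroxylase, was higher in co-cultured than in lone cells at every time. At 6, 24 and 48 h its log2 ratio was 1.84 ± 0.13, 1.44 ± 0.13 and 3.05 ± 0.13, with adjusted p-values of 1.33e-05, 2.18e-05 and 2.11e-08. Pts, the next enzyme of that cofactor pathway, was lower at 48 h at −1.01 ± 0.05 (adjusted p = 5.10e-08).

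Among the 16 genes of receptor coupling, 14 were tested. Arrb1, a beta-arrestin that takes receptors out of signalling, had a higher ratio at each time. The values were 0.68 ± 0.14, 1.72 ± 0.14 and 2.31 ± 0.14, with adjusted p-values of 0.00183, 1.21e-05 and 9.41e-08. Against 6 h, Arrb1 in cells alone was called lower at 24 h (−1.58 ± 0.14) and at 48 h (−1.07 ± 0.14). In co-cultured cells neither of these differences was called. Gnai2, a Gi subunit, was higher at 48 h at 0.71 and Gnai3 lower at −1.09, and the Gq effector Plcb3 was higher at 0.63. Plcb1, another phospholipase C, was lower at 6 h at −0.65. Rgs2 and Rgs4, which end signalling by G proteins, were lower at 48 h at −0.95 and −0.61, and the transglutaminase Tgm2 was higher at 0.73. Sult1a1, a sulfotransferase, was lower at 48 h at −1.11. Of the 5 regulators of monoamine oxidase transcription, Sirt1 was lower at 6 h at −0.66, and none was called at 24 or 48 h. At 48 against 6 h Foxo1 was lower by −0.84 in co-cultured cells, and Cdca7l higher by 0.63 ± 0.22 in cells alone (adjusted p = 0.0495). Foxo1 was also called lower in cells alone at 24 against 6 h, by −0.595 (adjusted p = 8.47e-04). S100a10, a partner of serotonin receptors that glucocorticoids are known to raise, was higher in co-cultured cells with cortisol (0.82 ± 0.11, adjusted p = 0.00932) and with both hormones (0.68 ± 0.11, adjusted p = 0.00883). Sult1a1 was higher there with both hormones (0.82 ± 0.21, adjusted p = 0.0488). Of the 32 pathway genes tested, 1 was called in co-cultured cells with cortisol and 3 with both, beside 1.91% and 3.73% of all genes. In cells alone 0 and 2 were called, beside 0.208% and 1.36%. Rgs2 was higher in cells alone with cortisol pooled (0.80 ± 0.15, adjusted p = 0.0294).

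Over the 12 arrays the ratio most like that of Htr2a, among 12400 genes, was that of Tlcd3a (Pearson's r = 0.955), followed by Ppp1r13l (0.949) and Tmem171 (0.941). Those most like Maoa were Fbxo30 (0.856), Tmem217 (0.849) and Ptprk (0.845). The 12 points share slides and treatments, and the values describe these arrays only.

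Markers of other cells were read in the same libraries. All 12 fibroblast markers on the list were tested, of which 1, 1 and 2 were called higher and 0, 1 and 3 lower in co-cultured cells at 6, 24 and 48 h, and Col1a1, Pdgfra and Dlk1 were well above background on every array. Of the 19 macrophage markers on the array 13 were tested, and 8, 3 and 7 of them were higher in co-cultured than in lone cells at 6, 24 and 48 h, with 1 lower at 48 h, beside 9.60%, 8.34% and 31.2% of all genes called. Their summed linear intensity ran from 15720 to 25700 in co-cultured cells and from 8993 to 15940 in cells alone. Among the defining markers C1qa was well above background on no array, and Ptprc and Spi1 on 1 array in each channel, whereas Csf1r and Itgam were on all 12 in both channels. Of 6 adipocyte markers tested, 1, 1 and 2 were called lower in co-cultured cells at the 3 times and 0 higher. The lipase gene Lpl was lower at each, at −1.01, −1.66 and −2.37, and the fatty acid carrier gene Fabp4 at 48 h, at −0.79. The summed linear intensity of the adipocyte list at 48 h ran from 29550 to 53420 in co-cultured cells and from 78600 to 99250 in cells alone. Such a sum weighs the brightest genes most. Adipoq was detected on no array, and Lep on 11 arrays in co-cultured cells and on 3 in cells alone. The fibroblast and adipocyte calls stand beside the same shares of all genes as the macrophage calls. At 6, 24 and 48 h the median log2 ratio of the macrophage list was 0.66, 0.21 and 0.74. That of the fibroblast list was 0.008, −0.115 and −0.284, and that of the adipocyte list −0.05, −0.03 and −0.18. The part of these lists in the ratios of Htr2a and Maoa was not tested. Of the 6 mast cell markers, Cpa3, Fcer1a and Mcpt4 were detected on no array and Kit on 1 array in each channel. Of the 2 tested, Tpsb2 rose by 1.79 ± 0.09 at 48 h (adjusted p = 4.39e-08). Hdc, the other, was detected on 3 arrays in co-cultured cells and on 4 in cells alone, and its ratio was not called at any time. The median ratio of the 2 at 48 h was 0.76. In these cultures fewer cells of a kind and less RNA per cell cannot be told apart.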

How the data were processed

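Gene expression was measured on 12 dual-colour Agilent 4x44k mouse arrays, 1 for each treatment and time. The authors scanned the arrays and deposited, for each spot, the median intensity and local background intensity of both channels, the processed intensity, the log10 ratio of Cy5 over Cy3, and 0 or 1 flags for spots above background, saturated or outlying. The software was Agilent Feature Extraction, version 10.7.3.1 by the headers of the files, while the submitters' processing notes name 10.5.1.1. The deposited value table held the same log10 ratios.

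Median intensities were corrected with normexp (offset 50) and normalised by loess within each array in limma 3.58.1 (R 4.3.3). Local backgrounds over 5 times the array median were replaced by that median and the spot dropped, as were outlier spots. Single channels were further scaled by Aquantile. Spots of a probe were averaged, probes were named through RefSeq, and 27508 of 39429 had 1 symbol. Probes were kept when detected on 3 arrays or more in one of the channels, and each gene was read from its brightest probe. Log2 values were fitted with lmFit and eBayes with a trend, on time and treatment as additive terms with 6 residual degrees of freedom. All tests were two-sided. The number of arrays limits the precision of each value, and dim spots and the 3 arrays in doubt limit some further. The steps were tested on simulated data. No column of sample values was left unmapped (0).

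The genes and all lists were chosen with earlier results of these data known. The genes named were the 10 members, the called genes of the pathway list up to the 15 with the largest log2 values, and the 3 genes most correlated with each member detected on all 12 arrays. Alternatives changed the offset, background, normalization, filter, probe summary, weights and fit, or left out arrays. Leaving out the 3 arrays in doubt, keeping high local backgrounds and the joint fit of both channels are given in the closing section with the others.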

Additional observations from a re-analysis of the deposited data

Results flagged for a closer look

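Single arrays stood apart from the other 3 of their time in 8 of the 63 sets of 4 arrays examined. The gap to the nearest array passed Dixon's critical share of the range for 4 samples, as chance does in about 1 of 20 sets, and the 4 arrays of a set differ in treatment. The NT array of 6 h gave 4 of them. There Htr2b was lowest at 6.61 in co-cultured cells and 6.55 in cells alone, Slc6a4 was lowest at 6.47 in co-cultured cells, and Maoa was highest at 12.7 in co-cultured cells. On that array neither Htr2b nor Slc6a4 was well above background in either channel. Their raw signals were the highest of the 6 h arrays, so these low values are not measured levels. On the CS array of 24 h Slc6a4 had the lowest ratio, −1.10, and the highest level in cells alone, 8.03. On the C array of 48 h Htr2a was highest in co-cultured cells at 8.14. On the CS array of 6 h Maob had the lowest ratio, 0.043.

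The co-culture ratio differed between times by a test of the difference for 3 genes. Htr2a was higher by 0.47 at 24 h and by 0.63 at 48 h than at 6 h. At 48 h against 6 h the Maoa ratio was higher by 0.42 and that of Maob lower by −0.38.

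Signal was also seen in probes that were not tested. Htr1b read 6.74 in the co-cultured cells of C at 24 h, the only array on which it was well above background, against 6.53 in NT. The second Ddc probe read 7.13 in the cells alone of the array labelled S at 6 h, against 6.37 in NT, and that array is one of the 3 in doubt.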

How the results depend on the processing

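The Htr2a ratio was called at 24 and 48 h, and the higher Maob level after 6 h was called in both cultures, in every alternative in which they were tested. Among the 14 hormone comparisons other than CS against NT in co-cultured cells, 0 members were called with limma in any alternative. The number of the 7 members called moved elsewhere. The processed signals called 4 members in the ratio at 6, 24 and 48 h, 2 in each change of the ratio with time, 2 in co-cultured cells and 4 in cells alone from 6 to 48 h, and the deposited log ratios called 4 and 2 as well. Median centring called 0, 1 and 2 in the ratio at 6, 24 and 48 h, 2 and 1 in co-cultured and lone cells from 6 to 48 h and 1 in cells alone at 24 h. It turned the change of the Maoa ratio from 6 to 48 h to −0.37, against a shift of the median gene of −0.47. It left 1 call in the change of the ratio from 6 to 48 h, but for Maob (−0.61, adjusted p = 0.00128) and not Htr2a. Scaling between arrays left 0 there. With no fold threshold the counts were 3 and 5 in the ratio at 6 and 48 h, 1 and 3 in its changes, 3 and 4 in the cultures from 6 to 48 h, and 1 for CS in co-cultured cells, as with quantile normalization (1). An offset of 20 gave 2 in co-cultured cells from 6 to 48 h. Only Htr2a and Maoa were tested when a probe had to be well above background on all 12 arrays, which left 0 calls over time in co-cultured cells, and 0 and 1 in cells alone. In cells alone at 24 h 1 member stayed called without a filter, with array weights, with quantile normalization, with high local backgrounds kept, and without the 3 arrays in doubt.

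Leaving out each array in turn gave 1 to 2 members called in the ratio at 24 h, 0 to 1 in the change of the ratio from 6 to 48 h, 1 to 2 in co-cultured cells from 6 to 48 h, 0 to 1 for CS in co-cultured cells and 1 to 2 in cells alone at 24 h. The causes were not tested. Without the 3 arrays in doubt the Htr2a ratio at 24 h against 6 h had an adjusted p of 0.291, as 0 genes in place of 326 were called in that comparison.

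Over all genes, median centring raised the calls in the ratio at 6 h from 1337 to 3715, at 24 h from 1161 to 4733 and from 6 to 48 h from 3351 to 6474, and in cells alone from 6 to 48 h from 1899 to 2881. The processed signals called 2100 and 2136 in the ratio at 6 and 24 h, and the deposited log ratios 2090 and 2126. The calls for cortisol in cells alone were the least settled, from 0 to 342 against 29, and those for CS there ran from 8 to 408 against 190. Without the 3 arrays in doubt C and CS called 24 and 8 genes in co-cultured cells in place of 266 and 520. The files hold median spot signals, so mean signals were not run. No paired analysis was possible because, with 1 array for each condition, no replicate numbers pair the arrays. The co-cultured and lone RNA of an array are already paired in the log ratio, and the treatments of a slide share the time term of the fit. Dim spots limit Tph1, Slc6a4 and Htr2b most, since most of their Cy3 spots were not well above background.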
